A study of Mus musculus with 23 samples.

Results

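The proteasome is the cell's main protein-degrading machine, and its genes were followed through irradiation-induced leukemia in mouse bone marrow. All gene symbols that start with Psma, Psmb, Psmc, Psmd, Psme, Psmf or Psmg and a digit were taken from the array's annotation, with 1 probe set per symbol. They gave 50 of the 19938 symbols measured. Of these, 48 encode proteasome subunits, activators, the inhibitor or assembly chaperones. The pattern also takes Psmc3ip, a meiotic recombination factor, and Psme3ip1, a partner of an activator, which are not parts of the proteasome.

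The samples came from mice that had received a single 2 Gy dose at 2 months of age, so no group is without irradiation. In Pax5+/- mice 10 samples of leukemic bone marrow (1 to 10) were set against 7 of preleukemic pro-B and pre-B cells (11 to 13 and 21 to 24) taken 3 weeks after the dose. In wild-type (WT) mice 3 leukemic samples (14, 15 and 17) were set against 3 of preleukemic pro-B and pre-B cells (18 to 20), likewise taken at 3 weeks. Pax5+/- mice carry 1 working copy of Pax5, which encodes a transcription factor of B cell commitment. Titles name the leukemic cells pro-B, descriptions name them marrow, and neither states a sort. Strain and sex are not given. All values below are deposited log2 array signals, so a difference of 1 is a doubling.

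The proteasome is built from a barrel-shaped core, the 20S particle, and caps that open it. The core stacks rings of alpha subunits, which gate the entry, on rings of beta subunits, of which Psmb5, Psmb6 and Psmb7 cut proteins. In lymphoid cells and under interferon, Psmb8, Psmb9 and Psmb10 take the places of Psmb5, Psmb6 and Psmb7 and form the immunoproteasome, whose peptides suit class I antigen presentation. The 19S cap holds ATPases that unfold the substrate and a lid that removes ubiquitin, and Psme1 to Psme4 encode other caps.

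The 5 genes below carry the contrasts described here, and their promoter regions are shown because the genes lie in different places and moved in different directions. Each stretch is the RefSeq sequence of build GRCm38.p6 from 250 bases before to 50 bases after the annotated start, in the gene's own direction. Capitals mark matches, on either strand, to any of 4 motifs: TGACNNNGC (the core of antioxidant response elements), CCAAT, the interferon-stimulated response element (ISRE, searched as GAAA, any 2 bases and GAAA) and TTCNNNGAA (gamma-activated sites).
Psmb8, chr17:34197945-34198244, plus strand: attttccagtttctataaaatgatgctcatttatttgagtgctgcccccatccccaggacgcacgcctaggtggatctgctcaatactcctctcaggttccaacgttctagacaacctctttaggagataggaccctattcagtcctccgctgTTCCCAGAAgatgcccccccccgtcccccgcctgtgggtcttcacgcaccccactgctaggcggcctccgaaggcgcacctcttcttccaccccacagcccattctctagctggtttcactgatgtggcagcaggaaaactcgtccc
Psmb9, chr17:34187281-34187580, minus strand: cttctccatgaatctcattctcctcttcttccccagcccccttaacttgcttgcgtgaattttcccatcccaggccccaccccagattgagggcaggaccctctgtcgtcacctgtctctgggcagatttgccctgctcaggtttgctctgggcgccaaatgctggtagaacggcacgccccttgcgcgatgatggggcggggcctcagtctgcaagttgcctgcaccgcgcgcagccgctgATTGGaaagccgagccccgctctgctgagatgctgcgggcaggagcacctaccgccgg
Psmb10, chr8:105938343-105938642, minus strand: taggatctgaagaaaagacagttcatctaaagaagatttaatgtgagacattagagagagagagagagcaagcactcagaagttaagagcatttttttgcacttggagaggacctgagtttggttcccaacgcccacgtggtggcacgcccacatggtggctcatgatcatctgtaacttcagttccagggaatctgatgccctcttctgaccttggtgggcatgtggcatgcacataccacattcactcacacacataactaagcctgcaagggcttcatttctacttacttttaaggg
Psme1, chr14:55578244-55578543, plus strand: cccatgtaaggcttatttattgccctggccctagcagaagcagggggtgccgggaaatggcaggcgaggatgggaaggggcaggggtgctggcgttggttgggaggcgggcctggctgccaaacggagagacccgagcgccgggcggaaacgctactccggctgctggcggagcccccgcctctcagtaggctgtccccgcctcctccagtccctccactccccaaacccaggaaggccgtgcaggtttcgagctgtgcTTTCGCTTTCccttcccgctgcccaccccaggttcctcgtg
Psme4, chr11:30771525-30771824, plus strand: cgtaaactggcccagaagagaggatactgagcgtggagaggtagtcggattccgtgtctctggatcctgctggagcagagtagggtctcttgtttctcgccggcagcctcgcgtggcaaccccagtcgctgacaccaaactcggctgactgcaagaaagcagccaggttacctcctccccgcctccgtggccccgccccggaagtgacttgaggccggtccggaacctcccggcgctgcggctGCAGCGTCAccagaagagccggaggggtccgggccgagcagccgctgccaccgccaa

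Psmb8 held TTCNNNGAA 97 bases before its start, at position -97. Psmb9 held CCAAT, read on the other strand as ATTGG, at position -8. Psme1 held the ISRE motif on the other strand at position 9, and Psme4 held TGACNNNGC on the other strand at position -7. None of the 4 motifs' letters were in the Psmb10 stretch. Among the constitutive catalytic genes, Psmb5 and Psmb6 held TGACNNNGC at -47 and -9. Promoter sequences were matched for 40 of the 48 proteasome genes. TGACNNNGC was in 6 of these 40 (15.0%) and in 14.0% of 27025 genes with a promoter sequence. CCAAT was in 14 of the 40 (35.0%) and in 41.1% of genes. The ISRE motif was in 5 of the 40 (12.5%) and in 3.99% of genes, and TTCNNNGAA was in 3 of the 40 (7.5%) and in 9.55% of genes. The matches describe letters in a window and show no binding. Psmb9, Tap1, Psmb8 and Tap2 follow each other on chromosome 17, and Psme1 and Psme2 are separated by Emc9 on chromosome 14, where Psmb5 and Psmb11 are also neighbours.

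Signals covered 28944 probe sets on 23 arrays, with array medians of 6.06 to 6.2, and precision is limited by how many arrays there are. All 50 genes passed the filter on low values that left 15542 genes to test. On every array 47 of the 50 lay above the array's median. Psma8, the testis form of an alpha subunit, lay below it on every array, and Psmb11, the cortical thymus catalytic subunit, and Psmg3 crossed it. Pax5 itself ranged from 6.85 to 11.42 with a median of 8.33 in Pax5+/- leukemias and from 11.31 to 11.53 in Pax5+/- preleukemic cells. Xist, the RNA of the inactive X, exceeded a log2 level of 9 in 5 of the 10 Pax5+/- leukemias and in 3 of the 7 Pax5+/- preleukemic samples. It did so in all 3 leukemic and 0 of 3 preleukemic samples of WT mice, where stage and sex cannot be told apart.

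Leukemic Pax5+/- marrow carried more of most proteasome transcripts than preleukemic Pax5+/- cells. At an adjusted p under 0.05, by limma with the Benjamini-Hochberg adjustment taken over every gene tested, 31 of the 50 genes were higher and 6 were lower. Of all genes tested 28.0% were higher and 36.5% were lower (64.6% passed). The median log2 difference over the 50 genes was 0.28, against -0.05 over all genes tested. In 10 genes every leukemia exceeded every preleukemic sample, and in 3 every leukemia was below, against 11.7% and 10.8% of all genes tested. The rises were mostly modest, and the changes above a doubling or below a halving were few: Psmg1, Psmb8 and Psme4 passed a log2 difference of 1 in size, with Psma7 just under it.

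WT leukemias gave a like picture with fewer samples. Of the 50 genes 29 were higher and 1 was lower in leukemic than in preleukemic WT samples, against 17.9% and 19.3% of all genes tested (37.2% passed). The median log2 difference was 0.48, against -0.06 over all genes tested. Groups did not overlap for 30 genes higher and 1 lower in leukemia, against 21.1% and 23.3% of all genes tested. Of the 50 genes, 26 were higher in both genotypes and Psme4 was lower in both. A further 5 were higher and 5 lower with a pass in Pax5+/- mice alone, 3 were higher with a pass in WT mice alone, and 10 passed in neither. No gene had opposite calls, and no difference between the genotypes' changes passed its own test. Leukemic samples of both genotypes also carried more transcripts of other marrow cells, whose values follow the results by role.

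**Figure D1:**
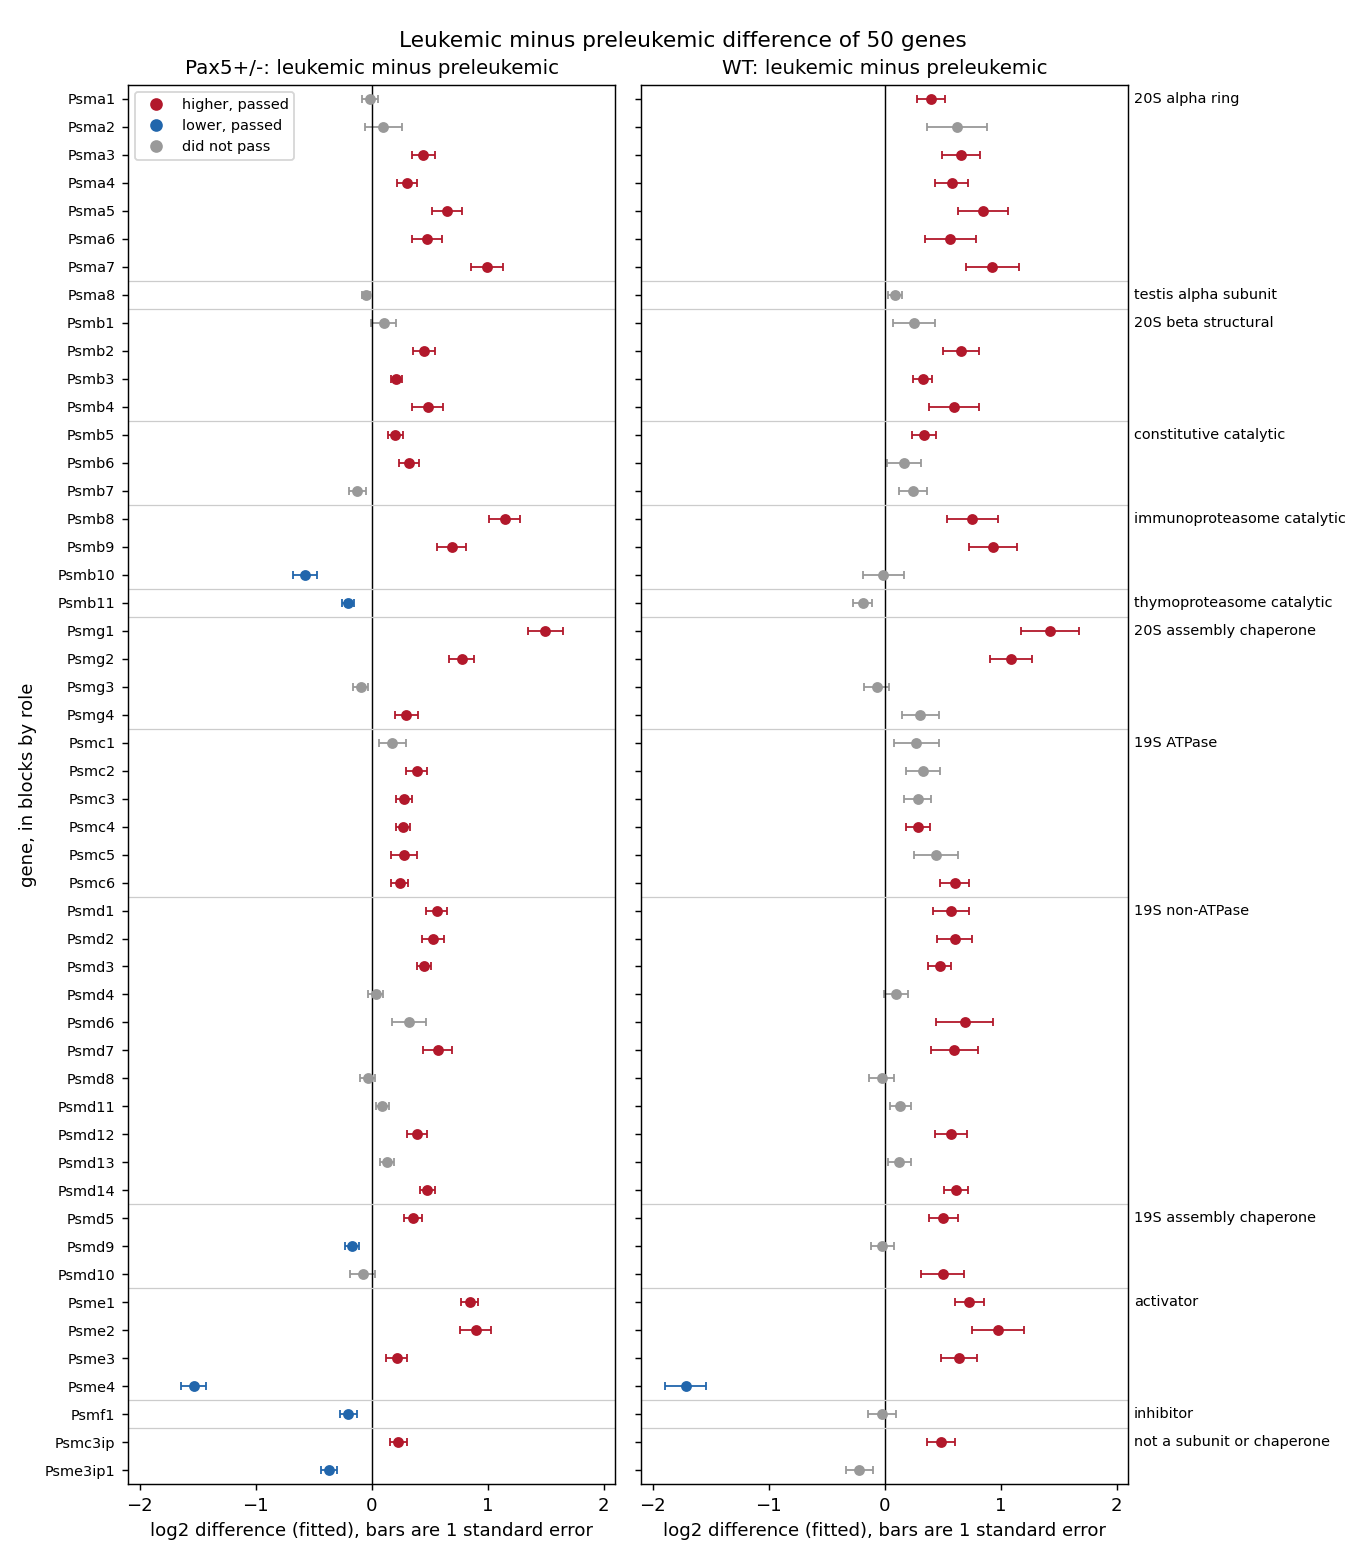
Fitted log2 difference between leukemic and preleukemic samples for the 50 genes, in blocks by role, in Pax5+/- mice (left, 10 against 7 samples) and WT mice (right, 3 against 3). Points are limma estimates and bars are 1 standard error. Red genes were higher and blue genes lower at an adjusted p under 0.05, and grey genes did not pass. Most points lie right of 0 in both panels, with Psme4 at -1.53 and -1.72 farthest left and Psmg1 at 1.50 and 1.42 farthest right.

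The catalytic subunits of the immunoproteasome did not move as a block. In Pax5+/- leukemias Psmb8 and Psmb9 were higher and Psmb10 was lower than in preleukemic cells. Psmb8, which replaces Psmb5, ranged from 9.71 (leukemia 1) to 10.47 (leukemia 2) with a median of 10.11 in the Pax5+/- leukemias, against 8.64 to 9.46 with a median of 8.96 in Pax5+/- preleukemic cells. All 10 leukemias exceeded all 7 preleukemic samples. The difference was 1.15 ± 0.13 (SE) on the log2 scale, a 2.22-fold rise (limma adjusted p = 3.16e-07). Psmb9, which replaces Psmb6, ranged from 9.88 to 10.82 with a median of 10.03 in leukemias, against 9.21 to 9.73 with a median of 9.48 in preleukemic cells. Again the groups did not overlap, and leukemias 2 and 5, at 10.82 and 10.53, stood above the other leukemias. The rise was 0.69 ± 0.12 (SE), or 1.61-fold (limma adjusted p = 7.59e-05).

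Psmb10, which replaces Psmb7, went the other way. It ranged from 9.46 to 10.14 with a median of 9.7 in Pax5+/- leukemias, against 10.0 to 10.48 with a median of 10.3 in Pax5+/- preleukemic cells. Leukemia 2, the highest at 10.14, was the only leukemia inside the preleukemic range. Psmb10 fell by 0.57 ± 0.11 (SE), a 1.49-fold difference (limma adjusted p = 9.26e-05). In exact two-sided permutation tests of the samples, p was 5.14e-05 for both Psmb8 and Psmb9, the smallest these groups allow, and 0.000103 for Psmb10. Adjusted over the 24 such tests run, these were 0.000617 for Psmb8 and Psmb9 and 0.000822 for Psmb10.

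The constitutive catalytic genes moved less. Psmb5, the chymotrypsin-like subunit, ranged from 11.45 to 11.7 with a median of 11.62 in Pax5+/- leukemias, against 11.18 to 11.68 with a median of 11.38 in Pax5+/- preleukemic cells. The groups overlapped through preleukemic samples 11 and 24. The rise was 0.20 ± 0.06 (SE), 1.15-fold (limma adjusted p = 0.00922, exact permutation p = 0.00756), and it missed the threshold after quantile normalization (0.16, limma adjusted p = 0.0648). Psmb6, the caspase-like subunit, ranged from 10.11 to 10.47 in leukemias, against 9.67 to 10.28 in preleukemic cells, and rose by 0.32 ± 0.09 (SE), or 1.25-fold (limma adjusted p = 0.00316). Psmb7, the trypsin-like subunit, ranged from 9.93 to 10.37 in leukemias, against 10.07 to 10.53 in preleukemic cells. Its difference of -0.12 ± 0.07 (SE) did not pass (limma adjusted p = 0.145, exact permutation p = 0.107).

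In WT mice the same 6 genes were measured in 3 samples a group, where an exact permutation test cannot give less than 0.1. Psmb8 was 10.09, 9.97 and 9.76 in WT leukemias, against 8.68, 9.34 and 9.53 in WT preleukemic samples. The groups did not overlap, and the rise was 0.76 ± 0.22 (SE), 1.69-fold (limma adjusted p = 0.0116). Preleukemic sample 18, the lowest, weighed on this: without it the difference was 0.51 (limma adjusted p = 0.101), and with only the WT samples in the fit the adjusted p was 0.0555. Psmb9 was 9.86, 10.3 and 10.03 in WT leukemias, against 8.9, 9.08 and 9.41 in WT preleukemic samples, a rise of 0.93 ± 0.21 (SE), 1.91-fold (limma adjusted p = 0.00159). The groups did not overlap.

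Psmb10 was 9.47, 10.29 and 9.95 in WT leukemias, against 10.04, 10.01 and 9.69 in WT preleukemic samples. The leukemias lay on both sides of the preleukemic samples, and the difference of -0.01 ± 0.18 (SE) did not pass (limma adjusted p = 0.97). Psmb5 was 11.59, 11.71 and 11.69 in WT leukemias, against 11.26, 11.51 and 11.2 in WT preleukemic samples, a rise of 0.34 ± 0.11 (SE) (limma adjusted p = 0.0167). That call was lost without WT leukemia 15 (0.32, limma adjusted p = 0.0541), without WT preleukemic sample 18 (0.31, 0.0669) or 20 (0.28, 0.0592), and under quantile normalization (0.20, 0.199). Psmb6 and Psmb7 differed by 0.17 ± 0.15 and 0.24 ± 0.12 (SE) and did not pass (limma adjusted p = 0.371 and 0.122). Psmb7 passed as higher in WT leukemias with array weights (0.36, limma adjusted p = 0.0172) and without WT preleukemic sample 20 (0.35, 0.0363).

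**Figure D2:**
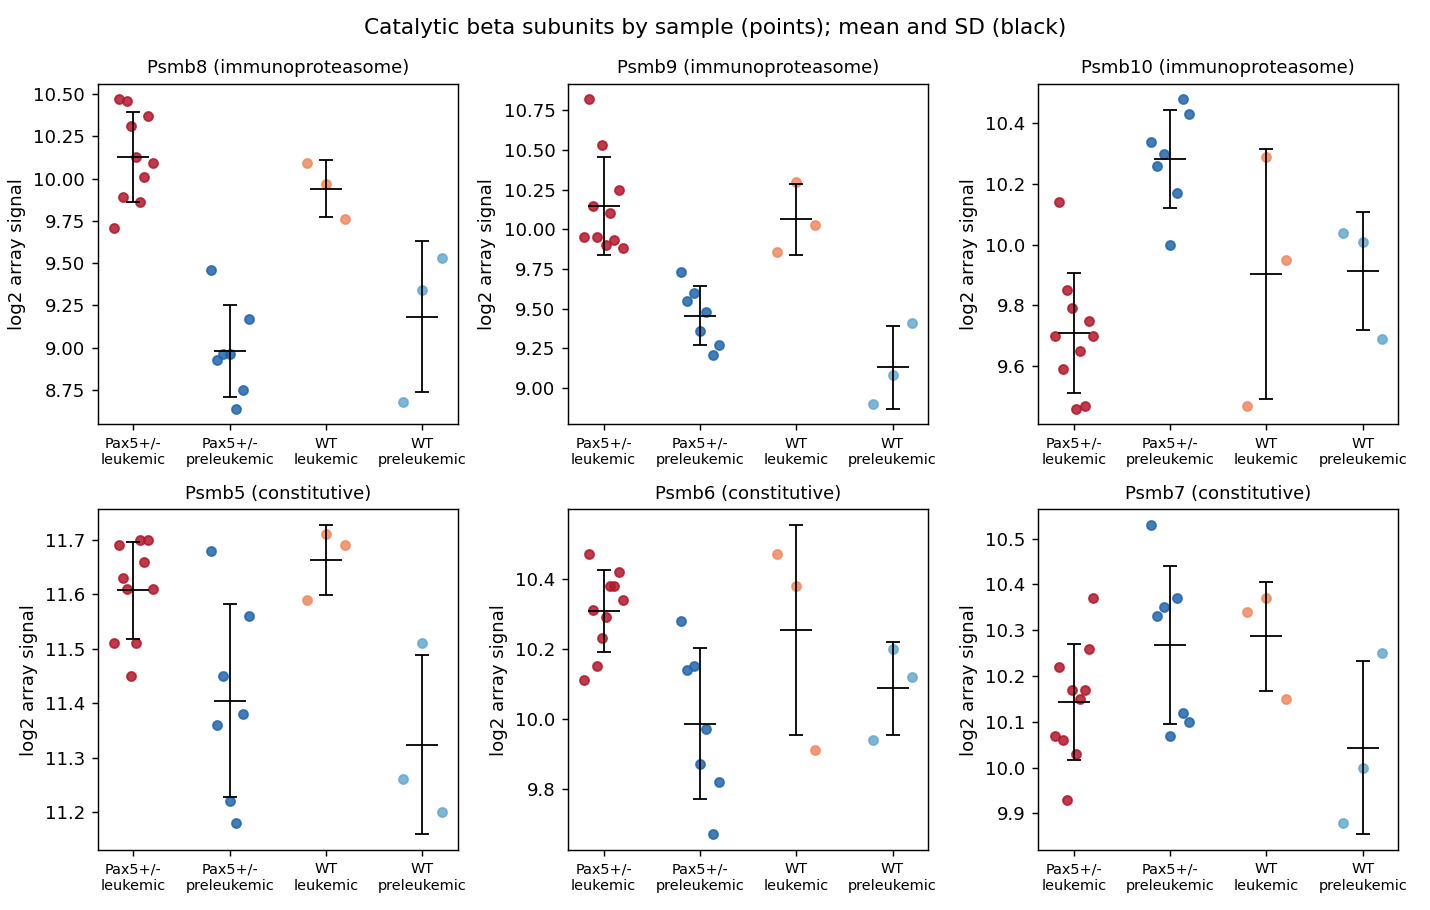
Log2 array signal of the 6 catalytic subunits in each sample, with group means and SDs in black, for Pax5+/- leukemic (n = 10), Pax5+/- preleukemic (n = 7), WT leukemic (n = 3) and WT preleukemic (n = 3) samples. The vertical axes differ between panels and do not start at 0. Psmb8 and Psmb9 are higher in leukemia without overlap in both genotypes, while Psmb10 is lower in Pax5+/- leukemias, where 1 of 10 points lies in the preleukemic range.

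For each sample the mean log2 level of Psmb8, Psmb9 and Psmb10 was set against that of Psmb5, Psmb6 and Psmb7. Only differences between samples can be read from it, since levels of different probe sets are not comparable, and a score over these genes was given no test. It averaged -0.69 ± 0.22 in Pax5+/- leukemias (SD, n = 10) and -0.98 ± 0.07 in Pax5+/- preleukemic cells (SD, n = 7). It averaged -0.77 ± 0.20 in leukemic and -1.08 ± 0.09 in preleukemic WT samples (SD, n = 3 each). The balance thus lay 0.29 and 0.31 higher in leukemia. Leukemias 2, 5 and 4, at -0.32, -0.41 and -0.48, stood highest, while leukemias 7, 10 and 8, at -0.87, -0.88 and -0.93, lay inside the preleukemic range of -1.08 to -0.87. Among WT leukemias, sample 14 at -0.99 lay inside the WT preleukemic range of -1.15 to -0.98, and samples 15 and 17, at -0.63 and -0.67, lay above it. With the median of each 3 genes in place of the mean, no group overlapped its counterpart: the balance was -0.52 to 0.08 in Pax5+/- leukemias and -0.91 to -0.71 in Pax5+/- preleukemic cells, and the stages differed by 0.51. For WT mice the ranges were -0.61 to -0.09 in leukemias and -1.04 to -0.72 in preleukemic samples, a difference of 0.57. Without Psmb10, an alternative chosen after seeing the data, the groups did not overlap either. The balance was then -0.79 to -0.15 in Pax5+/- leukemias and -1.45 to -1.23 in Pax5+/- preleukemic cells. In WT mice it was -0.83 to -0.69 in leukemias and -1.57 to -1.05 in preleukemic samples. The differences were 0.79 and 0.60.

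**Figure D3:**
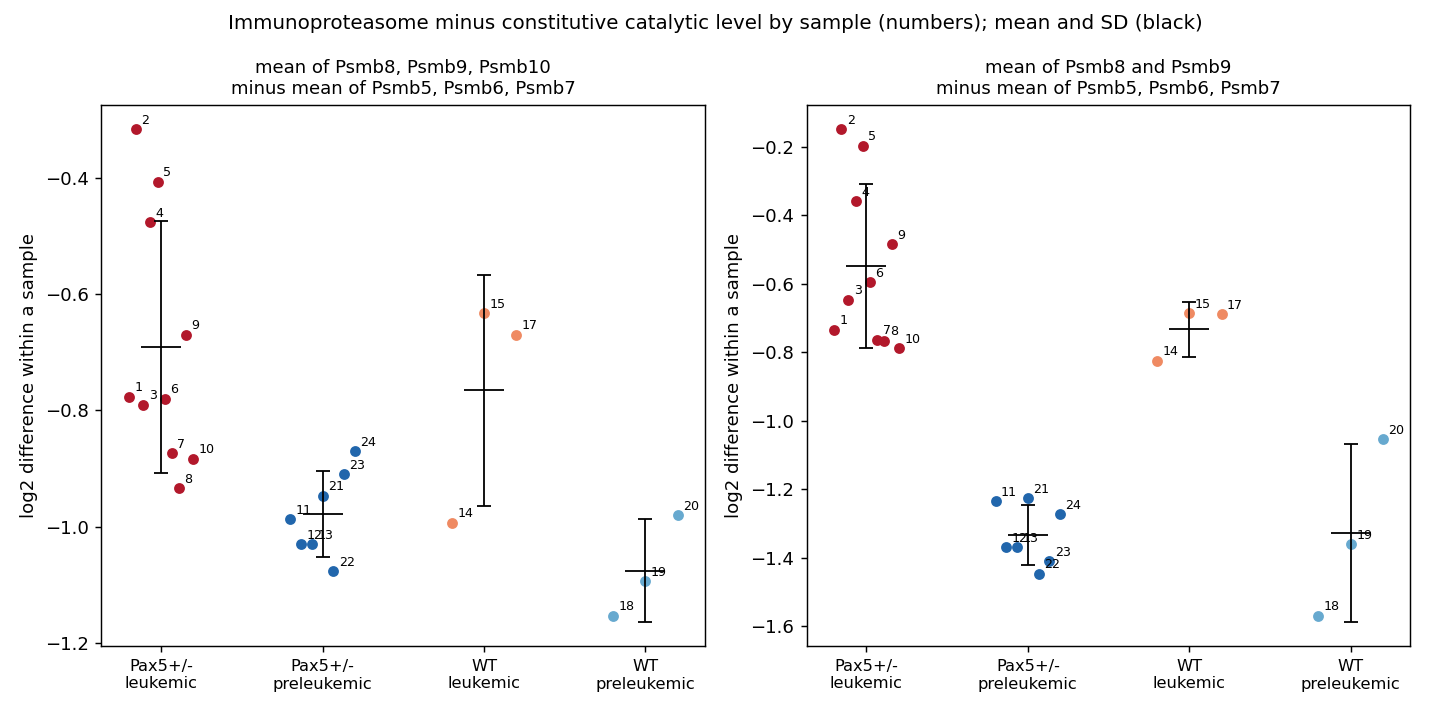
Mean log2 level of the immunoproteasome catalytic genes minus that of Psmb5, Psmb6 and Psmb7 within each sample, with all 3 immunoproteasome genes (left) and with Psmb8 and Psmb9 alone (right). Numbers are sample numbers, and black marks are group means and SDs. On the left 3 Pax5+/- leukemias and WT leukemia 14 reach into the preleukemic ranges, and on the right no leukemia does.

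Among the 10 Pax5+/- leukemias, 9 relations between catalytic genes were computed, with p-values from permutation of the samples. Psmb5 and Psmb6 tracked each other over the leukemias (Pearson r = 0.73, adjusted permutation p = 0.0831, Spearman rho = 0.84, adjusted permutation p = 0.0351), and r was 0.88 without leukemias 5 and 6, the farthest from the median of Psmb5. None of the other 8 passed after adjustment. Psmb9 and Psmb10 had r = 0.76 (adjusted permutation p = 0.0831), which dropped to 0.23 without leukemias 2 and 5, so that it rests on them. Psmb8 and Psmb10 had r = 0.62 (adjusted permutation p = 0.111), and 0.67 without leukemias 1 and 2. Psmb8 against Psmb5, the gene whose place its product takes, had r = 0.13 (adjusted permutation p = 0.724).

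Most alpha ring genes were higher in leukemia. Of the 7 genes 5 rose in Pax5+/- leukemias (median log2 difference 0.44) and 6 in WT leukemias (0.62). Psma7 changed most in Pax5+/- mice. It ranged from 8.87 to 9.79 with a median of 9.26 in Pax5+/- leukemias, against 8.13 to 8.66 with a median of 8.17 in Pax5+/- preleukemic cells, and the groups did not overlap. The rise was 1.00 ± 0.14 (SE), 2-fold (limma adjusted p = 2.72e-06). In WT mice Psma7 was 9.59, 9.46 and 8.96 in leukemias, against 8.12, 8.15 and 8.95 in preleukemic samples, a rise of 0.93 ± 0.23 (SE) (limma adjusted p = 0.0033), which just missed the threshold with only the WT samples in the fit. WT leukemia 17 and WT preleukemic sample 20 differed by only 0.01 there. Psma5 rose by 0.65 ± 0.13 in Pax5+/- and by 0.85 ± 0.22 in WT mice (SE). Psma1 was the lowest of the ring: its difference was -0.01 ± 0.07 in Pax5+/- mice (limma adjusted p = 0.87) and 0.40 ± 0.12 in WT mice (limma adjusted p = 0.0121). The WT call of Psma1 was lost without WT leukemia 15 (0.35, limma adjusted p = 0.0515) or WT preleukemic sample 19 (0.31, 0.0844), and with only the WT samples in the fit (0.0665). Psma8 stayed at 5.52 to 5.78 in Pax5+/- leukemias and 5.56 to 5.81 in Pax5+/- preleukemic cells, below every array's median.

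Of the 4 noncatalytic beta genes Psmb2, Psmb3 and Psmb4 rose in both genotypes and Psmb1 did not pass in either. Psmb4 differed by 0.48 ± 0.13 in Pax5+/- mice, with 11.09 to 11.82 in leukemias, against 10.55 to 11.48 in preleukemic cells. Psmb2 rose by 0.45 ± 0.09 in Pax5+/- and by 0.66 ± 0.16 in WT mice. Psmb3, the gene with the strongest signal of these, rose by 0.21 ± 0.05 and 0.33 ± 0.08, and Psmb1 differed by 0.10 ± 0.11 and 0.25 ± 0.18 (SE throughout). Psmb11 lay near the array median, at 5.65 to 5.76 in Pax5+/- leukemias and 5.8 to 6.05 in Pax5+/- preleukemic cells. Its fall of 0.20 ± 0.05 (SE, limma adjusted p = 0.00177) is a difference between dim signals. In WT mice Psmb11 differed by -0.19 ± 0.08 (SE, limma adjusted p = 0.0788).

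The chaperones that build the 20S core held the largest rise of all 50 genes. Psmg1 and Psmg2 form the pair that assembles the alpha ring. Psmg1 ranged from 7.8 (leukemia 4) to 8.97 (leukemia 10) with a median of 8.47 in Pax5+/- leukemias, against 6.77 to 7.15 with a median of 6.86 in Pax5+/- preleukemic cells. Even the lowest leukemia stood well above the highest preleukemic sample. The rise was 1.50 ± 0.15 (SE), 2.82-fold (limma adjusted p = 4.19e-08). In WT mice Psmg1 was 8.86, 8.81 and 8.15 in leukemias, against 6.91, 7.09 and 7.55 in preleukemic samples, a rise of 1.42 ± 0.25 (SE), 2.68-fold (limma adjusted p = 0.000212). Psmg2 ranged from 8.67 to 9.49 in Pax5+/- leukemias, against 8.13 to 8.52 in Pax5+/- preleukemic cells, and rose by 0.78 ± 0.11 (SE), 1.71-fold (limma adjusted p = 3.9e-06). In WT mice it rose by 1.09 ± 0.18 (SE), 2.12-fold, without overlap. Psmg4 rose by 0.30 ± 0.10 in Pax5+/- mice and differed by 0.31 ± 0.16 (limma adjusted p = 0.134) in WT mice. Psmg3, the partner of Psmg4, was dim in all groups and differed by -0.10 ± 0.06 and -0.07 ± 0.10 (limma adjusted p = 0.183 and 0.61).

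Subunit genes of the 19S cap either rose or did not pass. Of the 6 ATPases Psmc1 to Psmc6, 5 rose in Pax5+/- leukemias, with differences of 0.18 to 0.39 over all 6, and 2, Psmc4 and Psmc6, rose in WT leukemias. Psmc2 changed most in Pax5+/- mice, by 0.39 ± 0.09 (SE, limma adjusted p = 0.000794), and Psmc6 in WT mice, by 0.60 ± 0.12 (SE, limma adjusted p = 0.000766). Psmc1, at 0.18 ± 0.12 and 0.27 ± 0.19, did not pass in either genotype. Of the 11 lid and base subunits without ATPase activity, 6 rose in Pax5+/- and 7 in WT leukemias, and their median differences were 0.39 and 0.57. Psmd14, the deubiquitinase of the lid, ranged from 10.76 to 11.17 in Pax5+/- leukemias, against 10.34 to 10.59 in Pax5+/- preleukemic cells, and its groups did not overlap in either genotype. Its rise was 0.48 ± 0.06 in Pax5+/- and 0.62 ± 0.10 in WT mice (SE). Its partner Psmd7 rose by 0.57 ± 0.12 and 0.60 ± 0.20. Psmd3, a lid subunit, rose by 0.45 ± 0.06 and 0.47 ± 0.10, again with no overlap. The ubiquitin receptor Psmd4 (0.04 ± 0.06 and 0.10 ± 0.11) and the lid subunits Psmd8, Psmd11 and Psmd13 passed in neither genotype. Psmd6 had the largest difference of these in WT mice, 0.69 ± 0.25 (limma adjusted p = 0.0333), with WT leukemia 17 at 9.16 below WT preleukemic sample 20 at 9.24. Without WT leukemia 15 its difference was 0.54 (limma adjusted p = 0.136), and it was likewise lost without sample 14, 18 or 19.

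The chaperones of the 19S base differed among themselves. Psmd5 rose by 0.35 ± 0.08 in Pax5+/- and by 0.51 ± 0.13 in WT mice. Psmd9 fell by 0.17 ± 0.06 in Pax5+/- mice (limma adjusted p = 0.0166, and 0.0520 with arrays centred on their medians) and differed by -0.02 ± 0.10 in WT mice. Psmd10, also known as gankyrin, differed by -0.08 ± 0.11 in Pax5+/- mice (limma adjusted p = 0.547). In WT mice Psmd10 rose by 0.50 ± 0.18 (limma adjusted p = 0.0376). This gene lies on the X chromosome, and stage and sex cannot be told apart in the WT samples.

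The other caps held the deepest fall of the 50 genes in both genotypes and, in Pax5+/- mice, the rise of smallest p. Psme1 and Psme2 form the PA28 alpha-beta ring, an interferon-inducible cap that opens the core without ubiquitin. Psme1 ranged from 10.14 to 10.85 with a median of 10.45 in Pax5+/- leukemias, against 9.54 to 9.7 with a median of 9.59 in Pax5+/- preleukemic cells. The preleukemic samples lay close together, and all 10 leukemias were above them. The rise was 0.84 ± 0.08 (SE), 1.79-fold (limma adjusted p = 8.86e-09). Psme2 ranged from 10.73 to 11.66 with a median of 11.18 in leukemias, against 9.97 to 10.54 with a median of 10.19 in preleukemic cells, and rose by 0.90 ± 0.13 (SE), 1.86-fold (limma adjusted p = 8.54e-06). In WT mice Psme1 was 10.53, 10.7 and 10.28 in leukemias, against 9.63, 9.79 and 9.9 in preleukemic samples, a rise of 0.73 ± 0.13 (SE). Psme2 was 11.39, 11.68 and 11.02 in WT leukemias, against 10.21, 10.34 and 10.6 in WT preleukemic samples, a rise of 0.98 ± 0.22 (SE). Neither gene's groups overlapped in WT mice.

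Psme4 encodes PA200, a nuclear cap linked to acetylated histones and DNA repair. It ranged from 8.49 to 9.13 with a median of 8.95 in Pax5+/- leukemias, against 10.13 to 10.74 with a median of 10.4 in Pax5+/- preleukemic cells. The ranges were a whole log2 unit apart, and leukemias 10 and 9, at 8.49 and 8.53, were lowest. Psme4 fell by 1.53 ± 0.11 (SE), a 2.89-fold difference (limma adjusted p = 2.1e-10). In WT mice it was 9.13, 8.97 and 8.86 in leukemias, against 10.69, 10.98 and 10.44 in preleukemic samples. It fell by 1.72 ± 0.18 (SE), a 3.29-fold difference (limma adjusted p = 5.62e-07), and was the only one of the 50 genes that fell in WT leukemias. Psme3, the nuclear PA28 gamma cap, ranged from 10.17 to 10.86 in Pax5+/- leukemias, against 9.99 to 10.46 in Pax5+/- preleukemic cells. Its rise of 0.21 ± 0.09 (SE) lay at the threshold (limma adjusted p = 0.0487). In WT mice it rose by 0.64 ± 0.15 (SE, limma adjusted p = 0.00316), with 10.74, 10.98 and 10.79 in leukemias, against 10.12, 9.96 and 10.51 in preleukemic samples. Psmf1, an inhibitor of the core, fell by 0.20 ± 0.07 in Pax5+/- mice (limma adjusted p = 0.0185) and differed by -0.02 ± 0.12 in WT mice (limma adjusted p = 0.89).

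**Figure D4:**
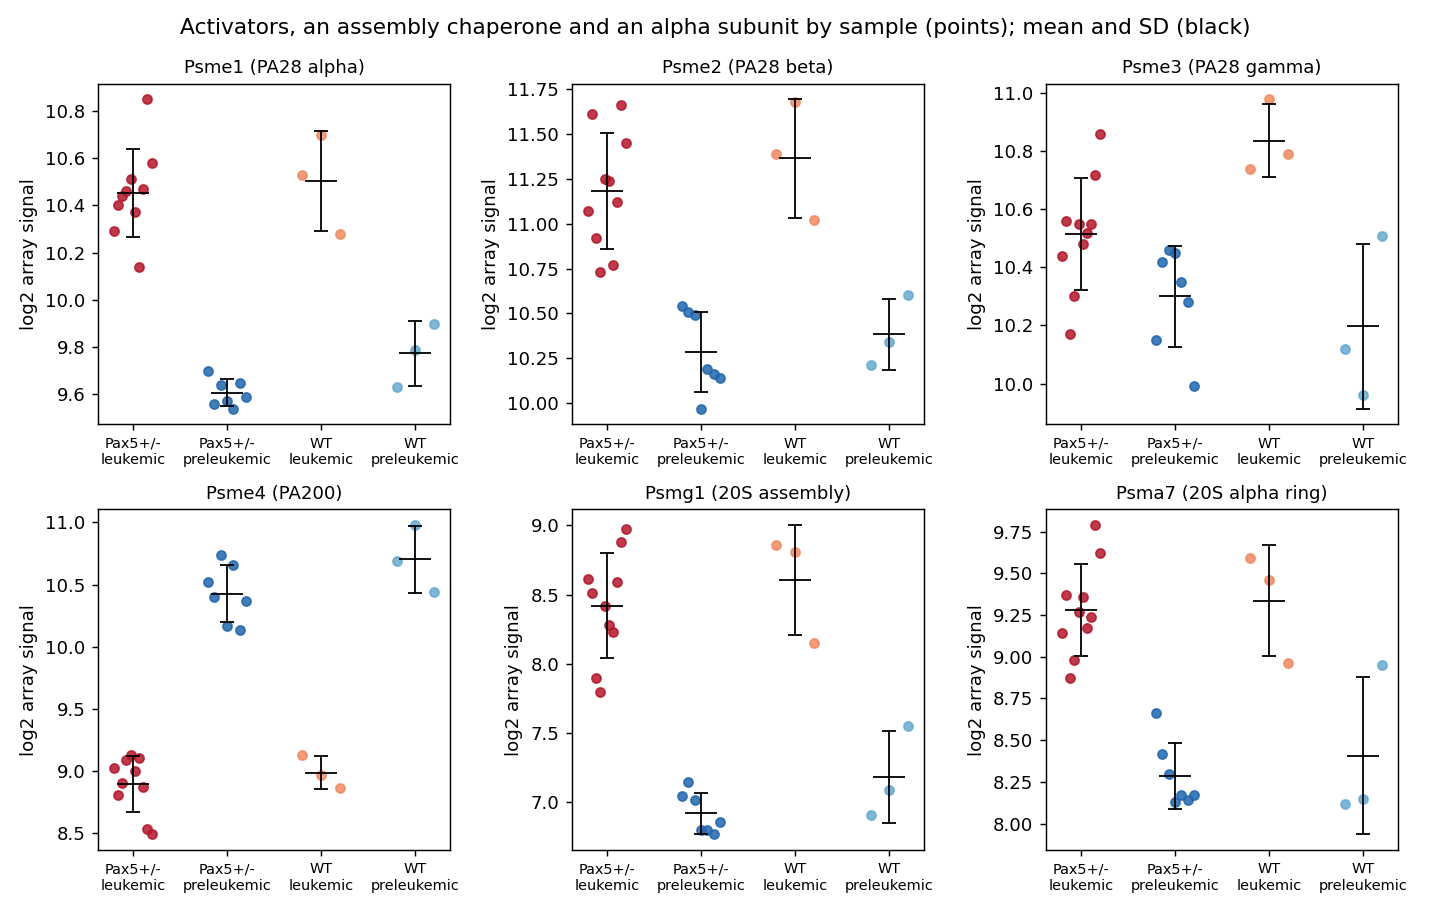
Log2 array signal of the 4 activator genes Psme1 to Psme4, of the assembly chaperone Psmg1 and of the alpha subunit Psma7 in each sample, with group means and SDs in black, for Pax5+/- leukemic (n = 10), Pax5+/- preleukemic (n = 7), WT leukemic (n = 3) and WT preleukemic (n = 3) samples. The vertical axes differ between panels and do not start at 0. Psme4 lies between 8.49 and 9.13 in all leukemias and between 10.13 and 10.98 in all preleukemic samples, while Psme1, Psme2 and Psmg1 are higher in leukemia without overlap.

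The 2 genes outside the proteasome moved in opposite directions in Pax5+/- mice. Psmc3ip rose by 0.23 ± 0.07 in Pax5+/- and by 0.49 ± 0.12 in WT leukemias, and its Pax5+/- call was lost under quantile normalization (0.12, limma adjusted p = 0.153). Psme3ip1, which encodes a binding partner of PA28 gamma, fell by 0.37 ± 0.07 in Pax5+/- leukemias without overlap, with 9.02 to 9.3 in leukemias, against 9.37 to 9.77 in preleukemic cells, and differed by -0.22 ± 0.11 (limma adjusted p = 0.137) in WT mice.

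Between Pax5+/- and WT samples of the same stage no gene passed. Before leukemia 0 of the 50 genes passed by limma, against 0.624% of all genes tested. An unadjusted p under 0.05 was found for 5 of the 50, and for 1394 of all 15542 genes tested. Psmc6 (0.28 ± 0.10), Psmc3ip (0.26 ± 0.10) and Psmb10 (0.37 ± 0.15) had the smallest p, with limma adjusted p of 0.374, 0.404 and 0.421. Psmb10 ranged from 10.0 to 10.48 in Pax5+/- preleukemic cells and was 10.04, 10.01 and 9.69 in WT preleukemic samples (exact permutation p = 0.025, adjusted over 24 tests 0.1). With array weights 4 genes passed in this comparison, Psma1, Psmc3ip, Psmc6 and Psmd14, each higher in Pax5+/- cells by 0.29 to 0.33, against 1.35% of all genes tested that were higher in that fit. In leukemia 0 of the 50 passed by limma, against 0.341% of all genes tested. Here 2 had an unadjusted p under 0.05, Psme3 (-0.32 ± 0.12) and Psmd10 (-0.32 ± 0.15), as did 916 of all 15542 genes tested. Psmb8 differed by 0.19 ± 0.18 and Psmb9 by 0.08 ± 0.17 between Pax5+/- and WT leukemias.

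Whether the change from preleukemic to leukemic samples differed between genotypes was tested as an interaction in the same limma fit. It passed for 0 of the 50 genes, against 0.0965% of all genes tested. An unadjusted p under 0.05 was found for 6 of the 50, and for 1118 of all 15542 genes tested. Psma1 (-0.41 ± 0.14), Psmb10 (-0.56 ± 0.20) and Psmd10 (-0.58 ± 0.21) had the smallest p, with limma adjusted p of 0.482, 0.54 and 0.55. The fall of Psmb10 in Pax5+/- mice and its value in WT mice were thus not shown to differ.

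The samples of a group differed in their overall proteasome level. The mean log2 level of the 48 proteasome genes ranged from 9.40 to 9.79 in Pax5+/- leukemias and from 9.15 to 9.45 in Pax5+/- preleukemic cells. Leukemia 4 was the lowest of its group for 24 of the 48 genes and had the lowest mean, inside the preleukemic range. Leukemias 9 and 10 were the highest for 18 and 13 genes. In Pax5+/- preleukemic cells samples 11, 12 and 13 had the highest means, 9.44 to 9.45, and samples 21 to 24 had 9.15 to 9.30. WT leukemias averaged 9.74, 9.79 and 9.49, and sample 17 was the lowest of the 3 for 38 of the 48 genes. WT preleukemic samples averaged 9.17, 9.23 and 9.37, and sample 20 was the highest of the 3 for 32 genes. The SD of a gene within a group had a median of 0.19 in Pax5+/- leukemias and 0.16 in Pax5+/- preleukemic cells, and of 0.17 in both WT groups.

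**Figure D5:**
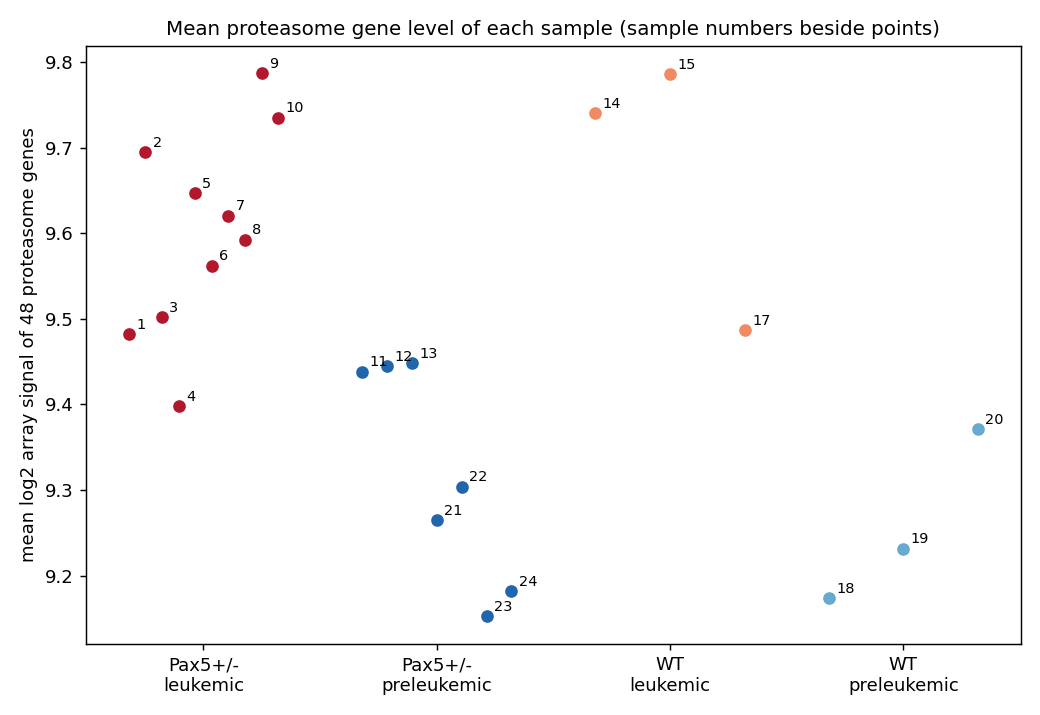
Mean log2 array signal of the 48 proteasome genes in each sample, with sample numbers beside the points. All Pax5+/- leukemias other than leukemia 4 lie above the highest Pax5+/- preleukemic sample, and WT leukemias lie at 9.49 to 9.79, above WT preleukemic samples at 9.17 to 9.37.

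Marker genes of other cells moved with the stage. In Pax5+/- leukemias 5 of 5 measured megakaryocyte and 10 of 12 monocyte and macrophage markers were higher. So were 11 of 14 neutrophil and 8 of 10 stromal markers, while 1 stromal and 7 of 11 B lineage markers were lower. The mean log2 level of the monocyte markers ranged from 7.25 to 9.68 in Pax5+/- leukemias and from 6.18 to 6.48 in Pax5+/- preleukemic cells. That of the megakaryocyte markers ranged from 7.98 to 10.81 in leukemias and from 6.32 to 6.56 in preleukemic cells. Neutrophil markers ranged from 6.27 to 10.87 in leukemias and from 6.30 to 6.96 in preleukemic cells, and stromal markers from 7.29 to 8.40 in leukemias and from 6.61 to 6.77 in preleukemic cells. B lineage markers ranged from 10.45 to 11.52 in leukemias and from 11.81 to 12.14 in preleukemic cells. In WT leukemias 4 of 5 megakaryocyte, 5 of 12 monocyte, 1 of 14 neutrophil and 7 of 10 stromal markers were higher. There 1 stromal and 8 of 11 B lineage markers were lower. Plasmacytoid dendritic cell markers were higher for 4 of 7 in Pax5+/- leukemias (median log2 difference 1.01). In WT leukemias 0 of these 7 were higher and 1 was lower (0.14). Of 7 erythroid markers 1 was higher and 1 lower in Pax5+/- leukemias (-0.16), and 4 were higher in WT leukemias (0.87). Over all genes tested, 28.0% were higher and 36.5% lower in Pax5+/- leukemias, and 17.9% and 19.3% in WT leukemias. WT preleukemic sample 20 had a neutrophil marker level of 10.57, above the WT leukemic range of 9.36 to 10.31, and the other two WT preleukemic samples had 6.65 and 6.69. In bulk RNA, fewer cells of a type and less RNA per cell cannot be told apart. Pax5+/- leukemias 4 and 7 had neutrophil marker levels of 6.27 and 6.57, no higher than the highest preleukemic samples. Their monocyte levels of 7.44 and 7.61, megakaryocyte levels of 10.81 and 8.61 and stromal levels of 7.84 and 7.9 lay above the preleukemic ranges. In these leukemias Psmb8 was 10.46 and 9.86, Psme1 was 10.46 and 10.14, Psmg1 was 7.8 and 8.23 and Psme4 was 9.09 and 9.1. Each of these genes lay outside its preleukemic range in every Pax5+/- leukemia, so leukemias 4 and 7 give no separate test.

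With the mean level of the megakaryocyte, monocyte, neutrophil and stromal markers as a covariate in the limma fit, fewer genes passed. In Pax5+/- mice 7 were then higher (Psma7, Psmb8, Psmd3, Psmd14, Psme1, Psmg1 and Psmg2) and 2 lower (Psmb10 and Psme4), against 16.6% and 11.6% of all genes tested in that fit. In WT mice 7 were higher (Psmb5, Psmc6, Psmd3, Psmd14, Psme1, Psmg1 and Psmg2) and Psme4 alone was lower, against 10.4% and 8.64% of all genes tested. Psmb8 had a difference of 0.94 ± 0.23 (SE, limma adjusted p = 0.00419) in Pax5+/- mice. There Psmb9 had 0.35 ± 0.20 (limma adjusted p = 0.206) and Psme2 had 0.50 ± 0.21 (limma adjusted p = 0.0848). Neither Psmb8 nor Psmb9 passed in WT mice, at 0.54 ± 0.29 and 0.59 ± 0.25 (limma adjusted p = 0.202 and 0.108). Among other lost calls of Pax5+/- mice, some genes kept about their size or more. Psmb4 had 0.48 ± 0.23, Psmd7 had 0.54 ± 0.21 and Psmb5 had 0.29 ± 0.11 (limma adjusted p = 0.125, 0.0650 and 0.0585). Others shrank, such as Psmd2 from 0.53 to 0.28, Psma3 from 0.44 to 0.22 and Psmc2 from 0.39 to 0.17. Of the falls, Psmd9 had -0.01 ± 0.10, and Psmf1 and Psmb11 had -0.03 and -0.08. Standard errors were wider than without the covariate, 0.23 against 0.13 for Psmb8. In both genotypes the megakaryocyte, monocyte and stromal marker levels of leukemic and preleukemic samples did not overlap. This fit therefore cannot cleanly separate stage from marker level, for the genes that passed or for those that did not. The part of other cells in the kept and lost calls was not tested.

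Genes that work with the proteasome were read from 3 lists. Of 26 regulators and partners, 18 had a probe set of their own. In Pax5+/- leukemias 6 of the 18 were higher and 4 lower, against 28.0% and 36.5% of all genes tested. In WT leukemias 4 were higher and 0 lower, against 17.9% and 19.3%. The counts of higher genes were thus near the shares over all genes. Both deubiquitinases that dock on the cap, Uchl5 (0.98 ± 0.12) and Usp14 (0.67 ± 0.10), rose in Pax5+/- leukemias. The ubiquitin shuttle Ubqln4 rose by 0.86 ± 0.11, and its relative Ubqln2 fell by 0.78 ± 0.12. In WT leukemias Uchl5, Usp14, Ubqln4 and Txnl1, a thioredoxin-like protein bound to the cap, rose by 1.21 ± 0.19, 1.00 ± 0.16, 0.91 ± 0.18 and 0.64 ± 0.14. Nfe2l1, the transcription factor that raises proteasome genes when proteasome activity drops, rose by 0.23 ± 0.09 in Pax5+/- mice (limma adjusted p = 0.033) and differed by 0.03 ± 0.15 in WT mice.

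Of 12 genes of class I antigen processing 10 were measured. In Pax5+/- leukemias 6 were higher and 0 lower, against 28.0% and 36.5% of all genes tested. In WT leukemias 4 were higher and 0 lower, against 17.9% and 19.3%. Tap1, the peptide transporter gene next to Psmb9, averaged 10.41 in Pax5+/- leukemias and 9.36 in Pax5+/- preleukemic cells, a rise of 1.06 ± 0.14 (SE). In WT mice it rose by 0.80 ± 0.23. Tap2, the other transporter gene, rose by 0.48 ± 0.13 in Pax5+/- mice and differed by 0.50 ± 0.22 (limma adjusted p = 0.0741) in WT mice. The chaperones Pdia3 (0.88 ± 0.13) and Canx (0.73 ± 0.07) and the peptide trimmer Erap1 (0.75 ± 0.09) rose in Pax5+/- leukemias and in WT leukemias. B2m, the light chain of class I molecules, differed by -0.09 ± 0.04 (limma adjusted p = 0.0908) in Pax5+/- mice.

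Of 10 interferon signalling genes 9 were measured. In Pax5+/- leukemias 1 was higher and 4 lower, against 28.0% and 36.5% of all genes tested. In WT leukemias 1 was higher and 2 lower, against 17.9% and 19.3%. Ifngr1, a chain of the interferon gamma receptor, rose by 1.51 ± 0.11 in Pax5+/- and by 1.42 ± 0.19 in WT leukemias. The transcription factor genes Irf2 (0.73 ± 0.09), Stat2 (0.60 ± 0.11), Irf1 (0.37 ± 0.15) and Irf8 (0.86 ± 0.31) fell by the amounts given in Pax5+/- leukemias, and Irf2 and Irf8 fell in WT leukemias. Irf9, Ifngr2, Jak1 and Jak2 did not pass in either genotype. In the same Pax5+/- leukemias Psmb8, Psmb9, Psme1 and Psme2 rose and Psmb10 fell. Whether interferon signalling had a part in these changes was not tested.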

How the data were processed

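Trizol-extracted total RNA was fragmented and biotin-labelled, per the labels' protocols, and each sample has 1 array. The deposited values are log2 signals of probe sets, made by the authors with Transcriptome Analysis Console per the submitters' processing notes. Background correction and normalization are not given in the sources used here. Values ran from 3.65 to 14.2.

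Of 28944 probe sets, 21789 carried 1 symbol, 1621 several and 5534 none. For each of 19938 symbols the single-symbol probe set of highest mean was used. Psme2b appeared only in a probe set of several symbols and was left out. For the 5 members with several probe sets, all of them moved in the same direction in both stage comparisons. A gene was tested when at least 3 arrays had it above their 30th percentile.

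The 4 groups, taken from the titles, entered 1 limma fit (version 3.58.1, R 4.3.3). Its eBayes step used a trend on intensity, tests were two-sided, and p-values over 15542 genes were adjusted by the Benjamini-Hochberg method and called under 0.05. Standard errors (SE) are those of this model. The 6 catalytic genes were also compared by exact two-sided permutation in 4 comparisons, adjusted over the 24 tests, and correlations used 100000 resamples. Scripts were tested on simulated data. Each sample has a source name of its own, but the labels do not say outright that each is a separate animal, so p-values measure the spread between these samples.

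Members, lists and markers were chosen with earlier results of these data known. Genes given with values are the catalytic genes, activators, Psmf1, Psmb11 and Psma8, the 6 largest passing rises and falls per stage comparison, the highest and lowest of each role, the 3 of smallest p in other comparisons, and up to 4 passing genes of each related list. Other named genes were picked with their values in view. The alternatives tried were a filter at the 50th percentile or none, no trend, robust priors, array weights, quantile normalization, centring on array medians, fits of 2 groups, averaged probe sets, Xist or the marker level as covariate, a random block by the mouse number's letter, and omission of single samples, of Pax5+/- leukemias 2, 6 and 7, or of WT samples 15, 17 and 20, which stood apart in earlier work on these data. Sequences and gene order are RefSeq's for build GRCm38.p6. Figures used matplotlib 3.10.9.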

Additional observations from a re-analysis of the deposited data

Results flagged for a closer look

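In 5 of the 100 groups of values examined, 1 sample stood apart from the other samples of its group by Dixon's criterion, which chance meets in about 5% of groups. Leukemia 4 of the Pax5+/- mice accounted for 4 of them, always as the lowest. Psma6, an alpha ring gene, was 11.14 there, with the nearest other leukemia at 11.57. Psmb2, a noncatalytic beta gene, was 11.08 there, with the nearest at 11.43. Psmc4, a cap ATPase gene, was 9.49, with the nearest at 9.69, and Psmd2, the ubiquitin-binding scaffold of the cap, was 10.23, with the nearest at 10.55. The same leukemia was lowest of its group for 24 of the 48 proteasome genes. Its Psmb8 level, at 10.46, was second of the 10 leukemias. The remaining case was Psmc3ip, at 7.46 in Pax5+/- leukemia 9, with the nearest other leukemia at 7.11. That leukemia was the highest of its group for 18 of the 48 proteasome genes. The cause was not tested.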

How the results depend on the processing

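In Pax5+/- leukemic against preleukemic samples, leaving out 1 sample gave 29 to 33 genes higher and 6 lower each time. In WT mice it gave 20 to 32 higher and 1 to 3 lower. The highest WT counts of lower genes, 3, came with array weights and without WT preleukemic sample 20, when Psmb11 and Psme3ip1 were added. The marker level as a covariate left 7 genes higher and 2 lower in Pax5+/- mice (against 16.6% and 11.6% of all genes tested) and 7 higher in WT mice (against 10.4%). Array weights gave 4 genes higher in Pax5+/- than in WT preleukemic samples, against 1.35% of all genes tested. The catalytic balance differed between stages by 0.514 with medians and 0.785 without Psmb10 in Pax5+/- mice, and by 0.573 and 0.595 in WT mice. Between Pax5+/- and WT preleukemic samples it was 0.097, and -0.0053 without Psmb10.

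Over 2690 values of 73 gene results, 2585 kept their direction and side of the threshold, 64 lost a call, 9 gained one and 32 changed sign, none of them past the threshold. In Pax5+/- mice Psma1 became 0.0047 with median centring and -0.042 to 0.011 leaving out 1 sample, Psma8 0.026 with quantile normalization, and Psmb1 -0.071 and Psmg3 0.070 with the marker covariate. In WT mice Psmb10 was 0.0033 with median centring and -0.20 to 0.21 leaving out 1 sample. Psmd8 was 0.025 with Xist, 0.08 without samples 15, 17 and 20, and -0.083 to 0.047 leaving out 1 sample. Psmd9 was 0.065 with Xist, 0.14 with the marker covariate and -0.063 to 0.027 leaving out 1 sample. Psme3ip1 was 0.040 with the marker covariate. Psmf1 was 0.0058 with array weights, 0.15 with the marker covariate and -0.073 to 0.05 leaving out 1 sample. Psmg3 was 0.097 with the marker covariate, 0.065 without samples 15, 17 and 20, and -0.20 to 0.028 leaving out 1 sample. Between genotypes Psmb8 was 0.018 before leukemia with array weights. In leukemia Psmb10 was 0.24 without samples 15, 17 and 20, and Psmb9 was -0.019 to 0.20 leaving out 1 sample. Without samples 15, 17 and 20, sample 14 is the only WT leukemia left. The values of Psmb10, Psmd8 and Psmg3 given for that fit rest on it. Without the 2 farthest leukemias r was -0.31 for Psmb8 and Psmb5 and -0.19 for Psmb10 and Psmb7. Psmb7 gained a call in Pax5+/- mice under quantile normalization (-0.18, limma adjusted p = 0.0356), and Psme3 lost its call there in most fits that left out 1 sample. The causes were not tested. Signals near the array median, as for Psma8, Psmb11 and Psmg3, limit what can be read of those genes. No paired analysis was run. Sample numbers run on across the groups and do not show whether any samples come from the same animal. The random block for the mouse letter, with a correlation of -0.044, left the counts at 31 and 6 in Pax5+/- and 29 and 1 in WT mice.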
